A study of Mus musculus with 8 samples.

Results

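The clustered protocadherins (Pcdh) are cell surface adhesion proteins encoded by neighbouring gene arrays. The genes described here are the 57 features, of 32285 in the count tables, whose symbols begin with Pcdha, Pcdhb, Pcdhga, Pcdhgb, Pcdhgc or Pcdhac and end in a number. They were taken by symbol, with no threshold on a measured value. They comprised 12 alpha, 22 beta, 12 gamma A and 6 gamma B genes and the 5 C-type genes Pcdhac1, Pcdhac2, Pcdhgc3, Pcdhgc4 and Pcdhgc5, and they carried 56 symbols because Pcdha11 was listed under both ENSMUSG00000007440 and ENSMUSG00000102206. All 57 lay on the + strand of chromosome 18 (GRCm38), from base 36930184 to base 37841873, a stretch of 912 kb.

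Each neuron is known to express its own small set of alpha, beta and gamma genes, chosen by a largely random selection of promoters that depends on CTCF, cohesin and DNA methylation, whereas C-type genes are used more constantly within a cell type. The proteins form cis dimers and bind only matching sets on another membrane, and neurites that carry the same set repel each other, which keeps the branches of a Purkinje cell apart. Among the C-type genes, Pcdhgc4 is known for its part in the survival of interneurons, Pcdhac2 for the spacing of serotonergic axons, Pcdhgc3 for broad expression that includes astrocytes, and Pcdhgc5 for binding to GABA-A receptors.

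Single-nucleus RNA sequencing (snRNA-seq) covered the petrous temporal bone (PTB), which holds the inner ear, and the paraflocculus and flocculus (PF/F), the cerebellar lobules beside it, of mice at P5.5. The 4 groups were PF/F WT, PF/F Tbx1+/-, PTB WT and PTB Tbx1+/-, where Tbx1+/- mice were heterozygous for a Tbx1 null allele and WT mice carried no such allele. All mice were on a C57/BL6 background and of both sexes. Each group had 2 libraries, each made from the pooled tissue of 5 mice, so the pool and not the nucleus or the mouse was the replicate, and the 2 libraries of a group came from separate batches.

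The PTB libraries held 66835028 to 88677309 unique molecular identifiers (UMIs) and the PF/F libraries 44713226 to 60627200. The deposited cell type tables covered 31076 PTB and 48237 PF/F nuclei, those of PTB being of chondrocyte, bone and connective tissue types, and pairs of libraries shared 11 to 60 barcodes. In PF/F, each of the 11 marker lists that were checked was highest in the type of that name, although the differentiated granule neuron markers lay at 1564 CPM (UMIs scaled to the total UMIs of the sum) in granule neurons and 1445 CPM in granule neuron progenitors (GNP). In PTB the labels and the markers matched less closely: connective tissue subtype CT4 ranked 13 of 15 types for connective tissue markers, and chondrocyte progenitor subtypes CP1 and CP6 ranked 7 and 8 of 15 for chondrocyte markers, with osteoblast markers at 11246 CPM in CP1 beside 12966 CPM in osteoblasts. Matured osteoblasts/osteocytes ranked 3 of 15 for osteoblast markers, at 10244 CPM, below osteoblasts and CP1. Tbx1 itself lay at 38.9 and 39.4 CPM in the annotated nuclei of the WT PTB libraries and at 26.3 and 35.7 CPM in those of the Tbx1+/- libraries, and at 0.095 to 0.27 CPM in PF/F.

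The structure of the arrays limits what a 3′ count can assign. Each alpha gene, and each gamma gene, joins its own first exon to constant exons at the end of its array, and all 35 alpha, gamma and C-type genes shared 31.5% to 66.8% of their exonic bases with other members. A read that lies wholly in a constant exon does not tell which member it came from. The authors counted in intron mode, so intronic reads could enter the counts. How reads were treated where members overlap is not given in the sources used here, and 2 of the 35 genes, Pcdha1 and Pcdhga1, had bases on their strand that no other gene covers. The single-gene values of the others may therefore leave out part of their RNA, and values per kb of own exon do not account for intronic reads. The beta genes share no constant exons. Of the 22 beta genes, 18 had a single exon and 2, Pcdhb21 and Pcdhb22, shared exonic bases. Summed levels are therefore compared here between cell types within a group of genes, not between groups of genes, and different genes are ranked against each other per kb of own exon, with plain CPM given for each gene as its own level.

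Member UMIs were sparse. Of the annotated nuclei, 44.3% in PF/F and 46.8% in PTB held a UMI of any member, and 95.9% and 95.1% of the nonzero entries were a single UMI. The sum over all 57 members came to 177 to 195 CPM in the 4 PF/F libraries and to 150 to 159 CPM in the 4 PTB libraries. The sparsity does not allow the set of genes used by a nucleus to be read, and the values below are sums over all nuclei of a type in a library. In such sums, fewer expressing nuclei and less RNA per nucleus cannot be told apart.

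Over all annotated PF/F nuclei, Pcdha11 (ENSMUSG00000102206) lay at 6.31 ± 0.83 CPM (SD, n = 4), or 1.35 CPM per kb of own exon, the highest of the alpha genes on both scales. Pcdha9 followed at 1.19 CPM per kb, and Pcdha12 and Pcdha4 lay at 0.95 and 0.94 CPM per kb. Among beta genes the order depended on exon length. Per kb, Pcdhb17 (2.24), Pcdhb7 (1.92) and Pcdhb20 (1.76 CPM per kb, named after its values were seen) were the highest, whereas by UMIs alone Pcdhb14 and Pcdhb19 came after Pcdhb17. Pcdhga12, the last gamma A gene before the C-type genes, lay at 13.5 ± 0.87 CPM and took 24.8% of all gamma A UMIs, and at 2.98 CPM per kb it was also the highest of the gamma A genes per length. The gamma B genes Pcdhgb6, Pcdhgb4 and Pcdhgb5 lay at 1.19, 0.976 and 0.876 CPM per kb, in the reverse of their order by UMIs. Differences between neighbours in these orders were not tested. At the other end, Pcdhb1 had no UMI in any annotated nucleus, and Pcdhac1 lay at 0.25 CPM in PF/F and at 1 UMI in all of PTB.

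In PTB all alpha genes were low. Pcdhga12 lay at 17.7 CPM and took 28.0% of the gamma A UMIs, Pcdhb17 at 6.35 CPM, Pcdhgb4 at 6.44 CPM and Pcdhgc4 at 9.81 CPM. Pcdha11 (ENSMUSG00000102206) lay at 0.58 CPM, or 0.125 CPM per kb, again the highest of the alpha genes per length.

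**Figure D1:**
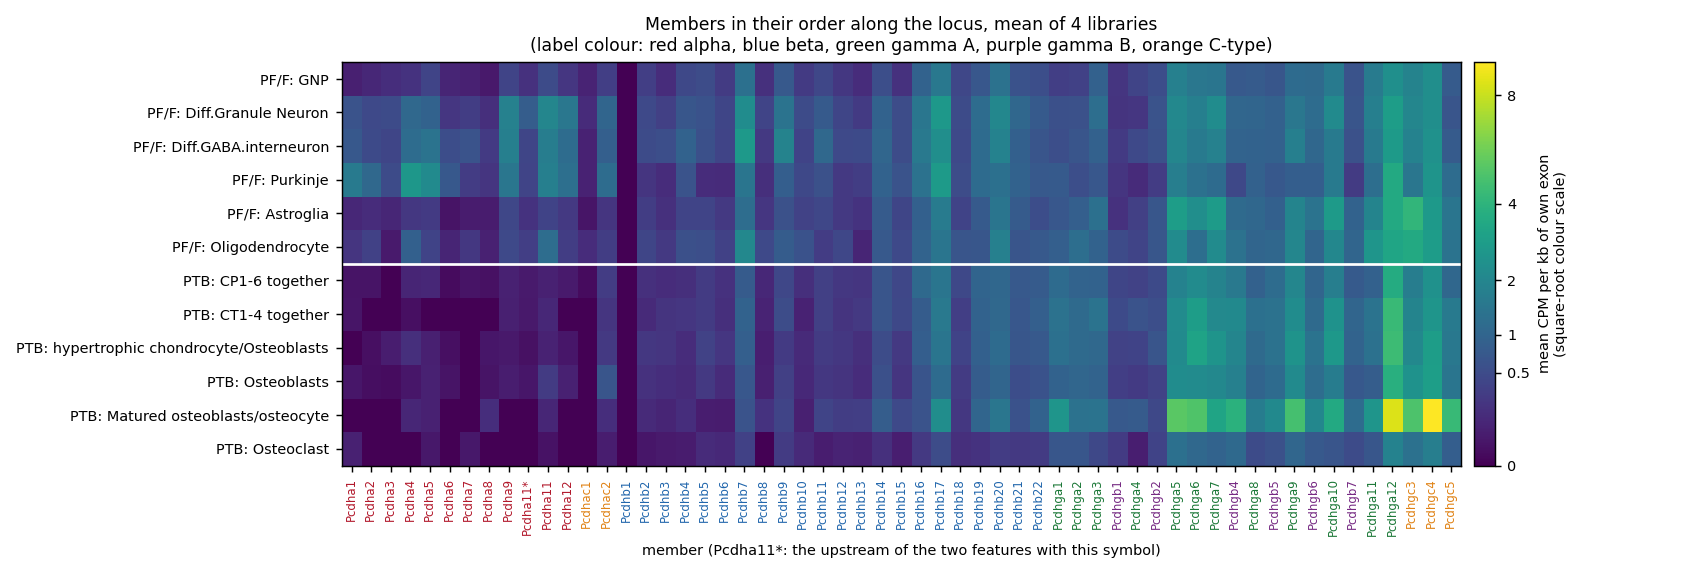
Mean level of each member over 4 libraries, in CPM per kb of own exon on a square-root colour scale, for 6 PF/F types (upper rows) and 6 PTB types or classes (lower rows), with members in their order along the locus. The alpha genes at the left are bright in neurons and dark in all bone rows, and Pcdhga12, Pcdhgc3, Pcdhgc4 and Pcdhgc5 at the right are brightest in matured osteoblasts/osteocytes.

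Alpha sums were high in differentiated neurons of PF/F. The alpha sum lay at 29.3, 30.9, 31.7 and 30.8 CPM in differentiated granule neurons (WT 1, WT 2, Tbx1+/- 1 and Tbx1+/- 2), the small excitatory neurons of the cerebellar cortex. It lay at 36.9 to 45.5 CPM in Purkinje cells and at 26.5 to 33.1 CPM in differentiated GABA interneurons. In the dividing granule neuron progenitors it was 6.84, 6.33, 7.59 and 8.92 CPM. None of these neuronal values overlapped those of GNPs, of astroglia (3.96 to 8.60 CPM) or of GABA interneuron progenitors (4.75 to 7.05 CPM). Oligodendrocytes lay between, at 14.2 to 14.9 CPM. Of the types with fewer than 50 nuclei in a library, the one labelled Progenitors, with as few as 20 nuclei, had 36.7 to 42.3 CPM, as high as neurons, and the one labelled GABA.interneuron, with as few as 49, had 31.0 to 60.2 CPM.

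Low alpha values were also found in immune and meningeal nuclei of PF/F. Immune nuclei had 0 to 11.6 CPM, from 9 UMIs in all, and meningeal nuclei 1.80 to 11.9 CPM. Immune nuclei held on average 21.3% of the granule neuron level of alpha UMIs and 28.3% of that of 5 general neuron markers, and GNPs held 24.2% and 43.8%. The part of free neuronal RNA in these values was not tested. Astroglia (21.8% and 31.2%), GABA interneuron progenitors (19.6% and 33.8%) and meningeal nuclei (23.9% and 24.6%) likewise had an alpha share below the marker share. In other types it was above, at 47.7% beside 23.6% in oligodendrocytes, 129.9% beside 49.8% in Purkinje cells and 36.6% beside 20.2% in the type labelled RL.early, and by smaller margins 29.5% beside 25.0% in pericytes and 21.1% beside 17.8% in endothelial nuclei. The order depended on the marker. Syt1 lay at 476 CPM in GNPs, 446 CPM in immune nuclei and 2437 CPM in granule neurons. Stmn2 lay at 600, 467 and 909 CPM in the same types. By Syt1 alone the alpha share was above the marker share in GNPs, immune and meningeal nuclei and, narrowly, GABA interneuron progenitors. In astroglia it stayed below.

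In PTB the alpha sum stayed at or below 6.15 CPM in every library of every type with at least 50 nuclei a library. Osteoblasts had 1.83 to 2.74 CPM, and osteoclasts 0 to 1.16 CPM. Matured chondrocytes, with as few as 48 nuclei a library, had 0 alpha UMIs, which over the 4 libraries allows up to 1.57 CPM. Among CP6 nuclei the neuron markers summed to 1703 CPM, of which the vesicle protein gene Syt1 made up 1625 CPM and the neuronal nuclear protein gene Rbfox3 4.64 CPM, while alpha genes lay at 0.986 to 2.99 CPM.

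**Figure D2:**
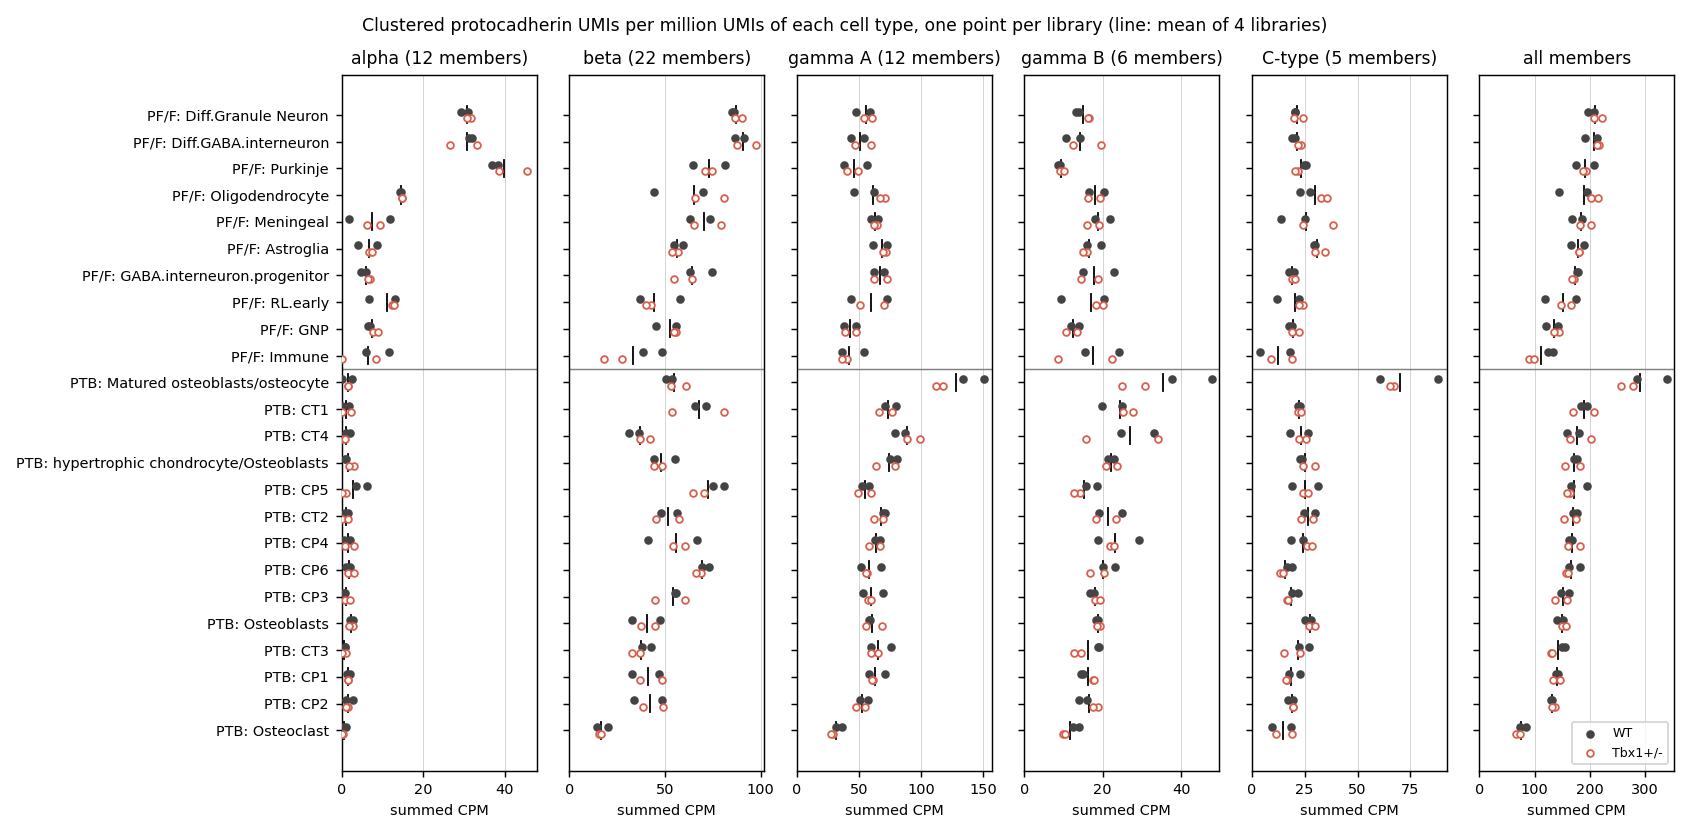
Summed CPM of each group of members and of all 57 members in cell types with at least 50 nuclei in each library, with filled points for WT libraries, open points for Tbx1+/- libraries and a line at the mean of 4 libraries. Alpha sums lie between 26.5 and 45.5 CPM in granule neurons, GABA interneurons and Purkinje cells and below 6.2 CPM in all PTB types, whereas gamma A and C-type sums reach their highest values in matured osteoblasts/osteocytes.

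The beta, gamma and C-type groups were present in every type and varied less. Beta sums lay at 84.8 to 90.1 CPM in granule neurons and at 86.6 to 97.7 CPM in differentiated GABA interneurons, against 45.5 to 55.7 CPM in GNPs and 53.7 to 59.4 CPM in astroglia. In PTB they ranged from 14.7 to 20.1 CPM in osteoclasts to 64.6 to 80.7 CPM in CP5. Gamma A sums lay at 61.7 to 72.7 CPM in astroglia, 48.0 to 60.4 CPM in granule neurons and 38.2 to 48.0 CPM in GNPs, and reached 112 to 151 CPM in matured osteoblasts/osteocytes. The total over all members was lowest in osteoclasts, at 66.5 to 84.8 CPM, and highest in matured osteoblasts/osteocytes, at 257 to 340 CPM.

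Differentiated granule neurons and the GNPs they arise from were set against each other in edgeR, by a quasi-likelihood fit to type sums with a term for the library. A gene passed at a Benjamini-Hochberg adjusted p under 0.05 over all genes tested and a change above 1.5-fold. The types were named by the authors from the same nuclei, so this and the following type comparisons describe named types. Of the 47 members that had enough UMIs to be tested, 36 were higher in granule neurons and 0 lower, where 20.9% of all genes tested were higher and 20.1% lower. The split by group was 7 of 7 alpha, 18 of 20 beta, 8 of 11 gamma A, 2 of 5 gamma B and 1 of 4 C-type genes, and 13 of the 36 were tested and passed in all 11 alternatives. Here and in the type comparisons below, members with few UMIs could enter the test only through the type in which they were high. The sums over all members of a group, tested or not, were therefore also compared within libraries. On the CPM scale granule neurons held 3.45 to 4.88 times the CPM of GNPs for alpha and 1.55 to 1.86 times for beta. The ratios were 1.22 to 1.41 for gamma A, 0.991 to 1.53 for gamma B and 0.906 to 1.26 for C-type genes.

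Pcdha11 (ENSMUSG00000102206) lay at 8.70, 9.51, 9.22 and 10.1 CPM in granule neurons and at 1.71, 2.57, 1.80 and 3.36 CPM in GNPs. All 4 granule neuron values were above all 4 GNP values, with a log2 change of 2.27 ± 0.17 (SE, adjusted p = 2.2e-11, edgeR). Pcdha9 and Pcdha12 were higher by 2.45 ± 0.24 and 2.83 ± 0.31 on the log2 scale. The beta gene Pcdhb17 lay at 12.0, 12.2, 13.9 and 12.1 CPM against 6.99, 5.31, 7.72 and 8.33 CPM, again without overlap and with a log2 change of 1.09 ± 0.12. The C-type genes diverged. Pcdhac2, at 2.44 to 3.60 CPM against 0.514 to 1.54 CPM, was higher by 1.83 ± 0.28 on the log2 scale (adjusted p = 3.4e-06, edgeR), and Pcdhgc4, Pcdhgc3 and Pcdhgc5 did not pass, at log2 values of 0.26, 0.35 and 0.04.

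The scaling of the libraries set part of this count. With total UMIs in place of the TMM factors, log2 changes in this pair were lower by a median of 0.27 and 25 of the 47 members were higher, in place of 36, beside 15.5% of all genes higher and 32% lower. All 7 alpha genes still passed, with 14 beta, 3 gamma A, 0 gamma B and 1 C-type genes. Pcdhgc4 and Pcdhgc5 then lay at −0.02 and −0.23 and so changed sign. Among nuclei with at least 2000 detected genes, 18 of 29 members tested were higher, beside 20.6% of all genes.

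**Figure D3:**
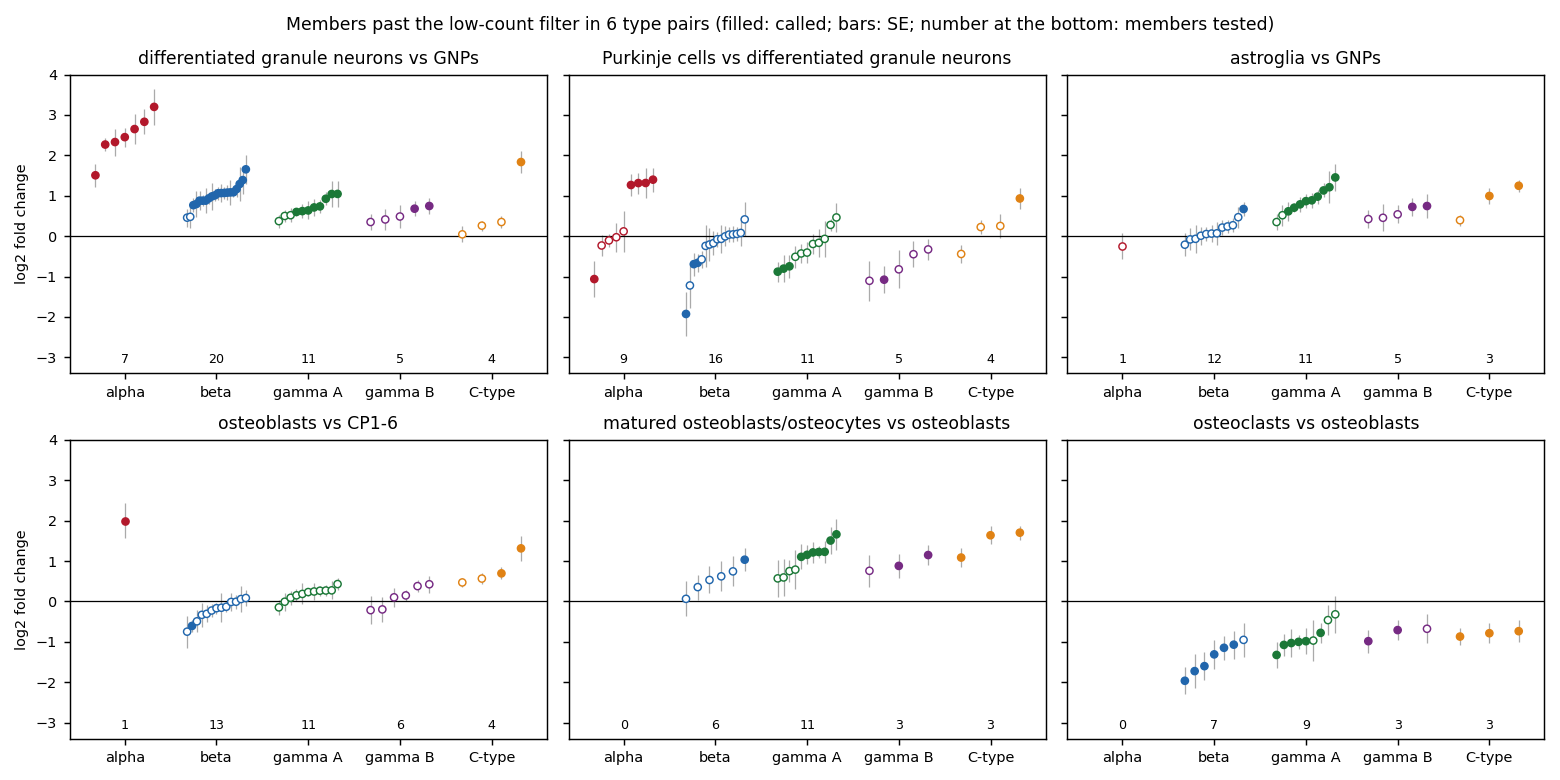
log2 fold changes with their SE for the members tested in 6 pairs of types, arranged by group, with filled points for members that passed and the number tested at the bottom. Alpha genes lie at 1.51 to 3.20 in granule neurons against GNPs, C-type genes at 1.09 to 1.70 in matured osteoblasts/osteocytes against osteoblasts, and all tested members lie below 0 in osteoclasts against osteoblasts.

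GABA interneurons against their progenitors held, within libraries, 3.75 to 6.55 times the alpha sum, 1.22 to 1.6 times the beta sum, 1.04 to 1.23 times the C-type sum, 0.465 to 1.04 times the gamma B sum and 0.624 to 0.874 times the gamma A sum. The gamma A sum was thus lower in the differentiated cells of each library, unlike in granule neurons against GNPs. Only 20 members could be tested, of which 4 were higher and 0 lower, beside 18.5% and 18.1% of all genes. Pcdha11 (ENSMUSG00000102206) lay at 7.70, 6.41, 6.31 and 11.6 CPM against 0.533, 2.37, 2.35 and 3.46 CPM, without overlap, and was higher by 2.06 ± 0.36 on the log2 scale. Pcdhb16, Pcdhgc4 and Pcdhb19 passed with log2 changes of 0.78, 0.72 and 0.88. The call of Pcdha11 held in all 10 alternatives in which it was tested, and those of the other 3 in 5 of 11. With total UMIs in place of TMM factors 1 member was higher and 1 lower, beside 15.6% of all genes higher and 23.8% lower.

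Purkinje cells, the output neurons of the cerebellar cortex, held 0.866 to 0.998 times the member sum of granule neurons within libraries, at 176 to 208 CPM against 197 to 223 CPM. Of 45 members tested, 5 were higher and 8 lower in Purkinje cells, where 21.8% and 20.9% of all genes were. Among alpha genes 4 were higher and 1 lower, among C-type genes 1 was higher, and all 7 beta, gamma A and gamma B genes that passed were lower. Within libraries Purkinje cells held 1.22 to 1.48 times the alpha sum and 0.555 to 0.697 times the gamma B sum of granule neurons.

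The alpha genes that were higher in Purkinje cells were Pcdha1, Pcdha2, Pcdha4 and Pcdha5, all among the first 5 of the array. Pcdha1 had 3.54, 5.58, 2.31 and 4.31 CPM against 1.39, 2.00, 0.981 and 1.75 CPM in granule neurons, a log2 change of 1.40 ± 0.29, and each Purkinje value exceeded every granule neuron value. Pcdha4 had 10.6, 3.59, 8.07 and 8.61 CPM against 2.58, 3.15, 3.27 and 3.55 CPM, a log2 change of 1.31 ± 0.26 in which the WT 2 library lay just above the highest granule neuron value. Pcdha5 was higher by 1.27 ± 0.28. Pcdha2, named after its values were seen, was higher by 1.32 ± 0.38 from 25 Purkinje UMIs. By contrast the upstream Pcdha11 feature (ENSMUSG00000007440, named after its values were seen) was lower at −1.06 ± 0.45. Pcdhgc5, at 7.07, 3.99, 5.19 and 5.85 CPM against 2.92, 2.00, 4.12 and 3.12 CPM, was higher by 0.93 ± 0.25 although the ranges overlapped. Lower in Purkinje cells were Pcdhb5 (−1.93 ± 0.54, from 5 Purkinje UMIs), Pcdhgb4 (−1.08 ± 0.33) and Pcdhga7 (−0.88 ± 0.25). Of the 13 calls in this pair, only those of Pcdha1 and Pcdha4 held in all 11 alternatives, so none of the lower calls did. Pcdha1 is also the only alpha gene with bases on its strand that no other gene covers, 9021 in all.

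Against differentiated GABA interneurons, 2 of 26 members tested were higher in Purkinje cells and 3 lower, beside 18.3% and 17.6% of all genes. Pcdha4 was again higher, by 1.25 ± 0.31 on the log2 scale, and Pcdha5 by 0.74 ± 0.31. Pcdhb9, Pcdhga9 and Pcdhb7 were lower, at −1.05, −0.94 and −0.84. Both comparisons use the same Purkinje sums and are not independent of each other. After the 8% of nuclei with the most UMIs were left out, 11 members could be tested and 0 passed, beside 17.5% of all genes higher and 17.1% lower.

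Astroglia, at 167 to 189 CPM over all members, held more gamma and C-type UMIs than GNPs. Against GNPs, 14 of 32 members tested were higher and 0 lower, where 22.8% of all genes were higher and 16.5% lower. These were 9 of 11 gamma A, 2 of 5 gamma B, 2 of 3 C-type, 1 of 12 beta and 0 of 1 alpha genes, of which 7 were tested and passed in all 11 alternatives. Over all members the astroglia held 1.49 to 1.79 times the gamma A sum, 1.56 to 1.67 times the C-type sum and 0.625 to 1.26 times the alpha sum of GNPs. Pcdhgc3 lay at 13.8, 12.7, 13.9 and 15.4 CPM in astroglia and at 4.51, 6.33, 7.21 and 7.75 CPM in GNPs, a log2 change of 1.25 ± 0.14 (adjusted p = 2.2e-07, edgeR). The ranges lay far apart, and Pcdhgc3 took 45.1% of the C-type UMIs of astroglia. Pcdhga7, Pcdhga12 and Pcdhgc5 were higher by 1.13 ± 0.17, 0.70 ± 0.12 and 0.99 ± 0.19. With total UMIs in place of TMM factors 10 of the 32 were higher and 0 lower, beside 20.0% and 21.6% of all genes.

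Oligodendrocytes had gamma A sums of 45.7 to 71.1 CPM and C-type sums of 22.9 to 35.7 CPM, and 2 of 23 members tested were higher and 1 lower than in astroglia, beside 12% and 16% of all genes. Pcdhgc3, at 10.9, 7.10, 14.8 and 14.9 CPM, did not pass, with a log2 value of −0.22 ± 0.18 and a nominal 95% interval of −0.58 to 0.13. Pcdha11 (ENSMUSG00000102206) was higher by 1.6 ± 0.35 on the log2 scale, at 3.15 to 8.89 CPM against 1.19 to 2.65 CPM. Pcdhb7 was higher by 0.79 ± 0.26, and Pcdhga6 lower at −0.87 ± 0.31. The call of Pcdha11, from 37 oligodendrocyte UMIs, held in all 9 alternatives in which it was tested, and those of Pcdhb7 and Pcdhga6 in 5 of 11.

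In bone, 13 members separated matured osteoblasts/osteocytes, the cells embedded in or about to enter the mineralised matrix, from osteoblasts. The sum over all members was 286, 340, 279 and 257 CPM in the former and 152, 140, 149 and 156 CPM in the latter, a ratio of 1.64 to 2.42 within libraries. The nuclei of both types had similar depth, with medians of 4610 and 4720 UMIs. By group the ratio was 2.19 to 3.17 for C-type, 1.63 to 2.58 for gamma A, 1.34 to 2.54 for gamma B and 1.13 to 1.52 for beta genes. The alpha sums, at means of 1.43 and 2.33 CPM, had ratios of 0 to 1.20, above 1 in 1 of 4 libraries. Of 23 members tested, 13 were higher and 0 lower, where 6.61% of all genes were higher and 6.51% lower. They were 3 of 3 C-type, 7 of 11 gamma A, 2 of 3 gamma B and 1 of 6 beta genes, and 10 of the 13 held in all 11 alternatives.

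Pcdhgc4 showed this most clearly, at 24.4, 41.5, 30.9 and 35.6 CPM in matured osteoblasts/osteocytes against 8.74, 10.4, 12.1 and 10.6 CPM in osteoblasts. The lowest of the former was above the highest of the latter, and the log2 change was 1.70 ± 0.17 (adjusted p = 1.4e-09, edgeR). Pcdhga12 lay at 37.8, 42.8, 34.7 and 39.8 CPM against 16.3, 15.1, 16.7 and 20.5 CPM, higher by 1.22 ± 0.15. Pcdhgc5 had 17.6, 30.2, 17.0 and 14.9 CPM against 4.79, 8.22, 6.69 and 6.52 CPM, higher by 1.64 ± 0.23. Pcdhgc3 was higher by 1.09 ± 0.23. All of these ranges were apart. Among the 14 PTB types with at least 50 nuclei in each library, 3 of 5 C-type, 8 of 12 gamma A, 3 of 6 gamma B, 2 of 22 beta and 1 of 12 alpha genes had their highest mean level in matured osteoblasts/osteocytes. The share of all genes with their highest level in this type was not computed. Pcdha8 and Pcdhb8, named after their values were seen, are in this count at only 0.40 and 0.72 CPM. Neuron markers did not move with these genes, at 37.7 to 67.2 CPM in matured osteoblasts/osteocytes and 54.5 to 78.3 CPM in osteoblasts, nor did osteoclast markers, at 463 to 946 CPM and 469 to 1010 CPM. The 5 Purkinje cell markers did, at 795 to 961 CPM against 314 to 349 CPM, and their part was not tested.

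**Figure D4:**
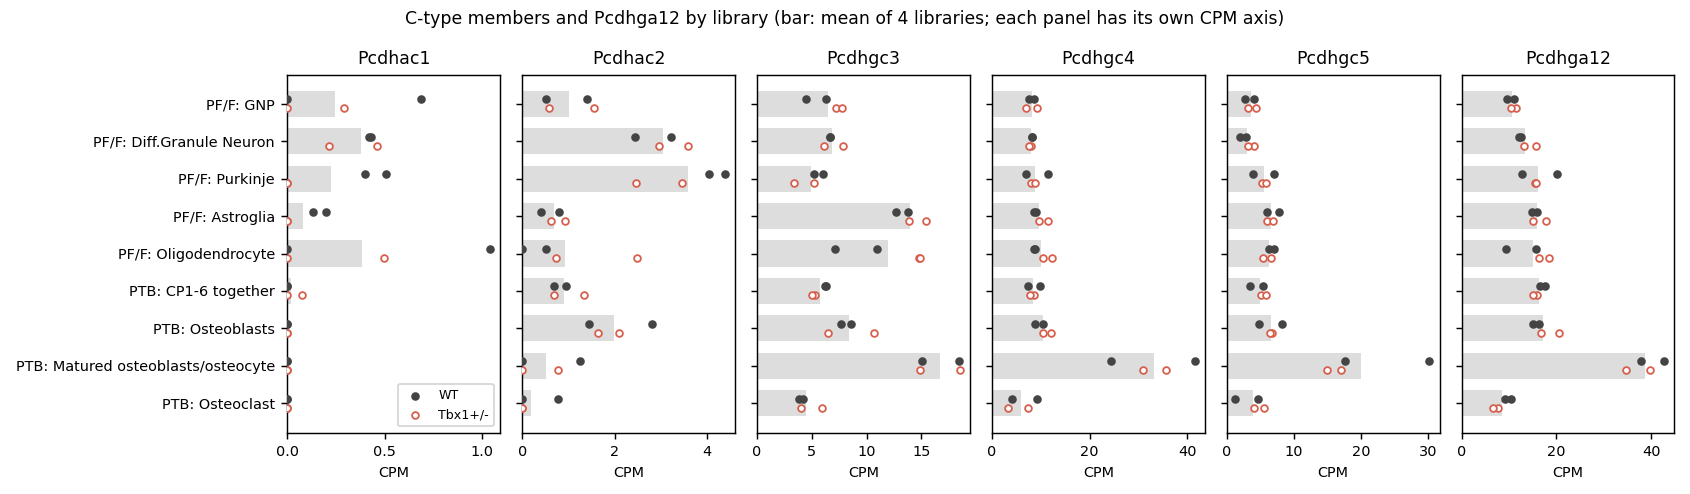
CPM of the 5 C-type genes and of Pcdhga12 in each library of 9 types, with bars at the mean of 4 libraries, filled points for WT and open points for Tbx1+/- libraries. Pcdhgc4 and Pcdhgc5 are highest in matured osteoblasts/osteocytes, Pcdhgc3 is high in both glial types and in matured osteoblasts/osteocytes, and Pcdhac2 is highest in granule neurons and Purkinje cells.

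Osteoclasts, bone-resorbing cells of the blood lineage, lay at the low end. The sum over all members was 74.0, 84.8, 66.5 and 73.3 CPM, a ratio of 0.447 to 0.605 to osteoblasts within libraries. Of 22 members tested, 17 were lower and 0 higher, where 19.9% of all genes were lower and 22.6% higher. Members with few osteoclast UMIs could enter this test only through osteoblasts, which tilts the count to lower. Over all members of a group, tested or not, the ratios within libraries were 0 to 0.556 for alpha, 0.347 to 0.446 for beta and 0.404 to 0.623 for gamma A. They were 0.511 to 0.742 for gamma B and 0.385 to 0.669 for C-type genes. No alpha gene could be tested, and the 17 were 6 of 7 beta, 6 of 9 gamma A, 2 of 3 gamma B and 3 of 3 C-type genes, of which 7 were tested and passed in all 11 alternatives. Pcdhb19 lay at 2.09, 1.55, 0.735 and 1.47 CPM against 5.78, 4.83, 6.91 and 5.48 CPM in osteoblasts, with a log2 change of −1.96 ± 0.34. Pcdhga12, at 9.19, 10.5, 7.72 and 6.63 CPM, had a log2 change of −1.0 ± 0.18, and Pcdhb14 one of −1.60 ± 0.34. None of these 3 ranges overlapped between the types. Osteoblast markers still summed to 2040 to 2610 CPM in the osteoclasts, and the part of free osteoblast RNA in the remaining member UMIs was not tested.

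Few members passed in the comparisons with CPs. Osteoblasts against the 6 CP subtypes summed had 3 members higher and 1 lower of 35 tested, beside 10.8% and 19.1% of all genes. Pcdha11 (ENSMUSG00000102206) lay at 1.41, 1.31, 1.54 and 1.04 CPM against 0.374, 0.780, 0.068 and 0.298 CPM, higher by 1.99 ± 0.43 on the log2 scale without overlap. Of the 5 neuron markers, Syt1 had a mean of 21.4 CPM in osteoblasts and 312 CPM in CPs, and each of the other 4 lay between 1.56 and 25.6 CPM in osteoblasts and between 3.72 and 28.6 CPM in CPs. The part of free neuronal RNA in the Pcdha11 values was not tested. Pcdhac2 was higher by 1.31 ± 0.30, at 1.44 to 2.82 CPM against 0.682 to 1.34 CPM. Pcdhgc3 was higher by 0.69 ± 0.15 and Pcdhb16 lower at −0.61 ± 0.16. Of these 4 calls, 2 held in all 11 alternatives. With total UMIs in place of TMM factors the split was 2 higher and 2 lower, beside 7.9% of all genes higher and 23.8% lower.

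No member passed between the 4 CT subtypes and the CPs (33 tested, beside 6.84% of all genes higher and 7.23% lower) or between hypertrophic chondrocyte/osteoblasts and CPs (31 tested, beside 9.5% and 15%). With edgeR, 8 and 6 of them had an unadjusted p under 0.05, a threshold at which the share of all genes was not computed. DESeq2 called 0 in both. Pcdhgc5 came near, at log2 values of 0.55 ± 0.16 and 0.51 ± 0.18, both under 1.5-fold. In matured chondrocytes Pcdhb14 and Pcdhb19 were lower than in CPs, beside 15.1% of all genes lower and 9.36% higher, from 3 and 4 UMIs in a type with as few as 48 nuclei a library. Neither call held in every alternative.

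The share of nuclei with a member UMI had the same order once depth was made equal. It comes from the same UMIs as the sums, mostly single ones, so it is no separate measure. Nuclei with at least 2000 UMIs were thinned to 2000 and shallower ones left out, 2637 of 18286 granule neurons, 2244 of 9404 GNPs, 7 of 1299 Purkinje cells and 37 of 900 matured osteoblasts/osteocytes among them. After thinning, 33.9% of granule neurons (range over 4 libraries 31.2 to 36.1%) and 23.2% of GNPs held a UMI of any member, beside 47.0% and 29.6% over all nuclei before thinning. Purkinje nuclei, which were deeper, fell from 70.2% to 30.9%. In PTB the thinned shares were 40.7% in matured osteoblasts/osteocytes, 24.2% in osteoblasts and 11.8% in osteoclasts. For alpha genes the thinned shares were 5.87% in granule neurons, 7.04% in Purkinje cells and 1.62% in GNPs, beside 1.05% in immune nuclei. The immune share rests on 3 of 287 nuclei (95% Wilson interval 0.356 to 3.03%). This interval pools the nuclei of 4 libraries and covers counting error only, not the spread between libraries. Nuclei with UMIs of at least 2 members made up 6.69% of granule neurons, 10.2% of matured osteoblasts/osteocytes and 1.25% of osteoclasts after thinning.

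Tbx1+/- and WT libraries were compared in each type with at least 50 nuclei in every library, in the CP and CT classes and in the sums over all annotated nuclei. Members could be tested in 28 of these units, 572 tests in all, and 0 passed with edgeR or DESeq2. Beside this, 0% of all genes passed in the PF/F and PTB sums and only Purkinje cells had any gene that passed (0.00778%). Tbx1 itself did not pass in any unit where it was tested, at a log2 value of −0.34 ± 0.17 (SE) in the PTB sum. At an unadjusted p under 0.05 there were 10 of the 572 tests (1.75%) with edgeR and 0 with DESeq2. With edgeR, 0.477% of all genes reached this in the PF/F sum and 1.07% in the PTB sum. In single types the share of all genes ran from 0.62% in granule neurons to 3.24% in CT3. The smallest unadjusted p among tests of the 2 overall sums was that of Pcdhb12 in PTB, named after its values were seen, at a log2 value of −0.89 ± 0.30, an unadjusted p of 0.030 and an adjusted p of 1.00 (edgeR).

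The 56 members tested in the PF/F sum had a median log2 value of 0.09, and the 45 tested in the PTB sum a median of −0.04. The median over all genes is not given beside these values, and no shift of the members as a group is read from them. Members ranged from −0.62 to 0.62 in PF/F and from −0.89 to 0.47 in PTB, with median SEs of 0.23 and 0.26. Pcdhga12, the member with the most UMIs, had nominal 95% intervals of −0.10 to 0.38 in PF/F and −0.24 to 0.23 in PTB on the log2 scale. These leave out a 1.5-fold change in either direction but are narrower than the edgeR test implies. No member passed in the test of whether the genotype difference differed between tissues (0 of 22148 genes), with edgeR or DESeq2. Of 56 members, 1 had an unadjusted p under 0.05, a threshold at which the share of all genes was not computed. With 2 libraries against 2, an exact two-sided permutation test of a single value cannot give a p below 0.33.

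**Figure D5:**
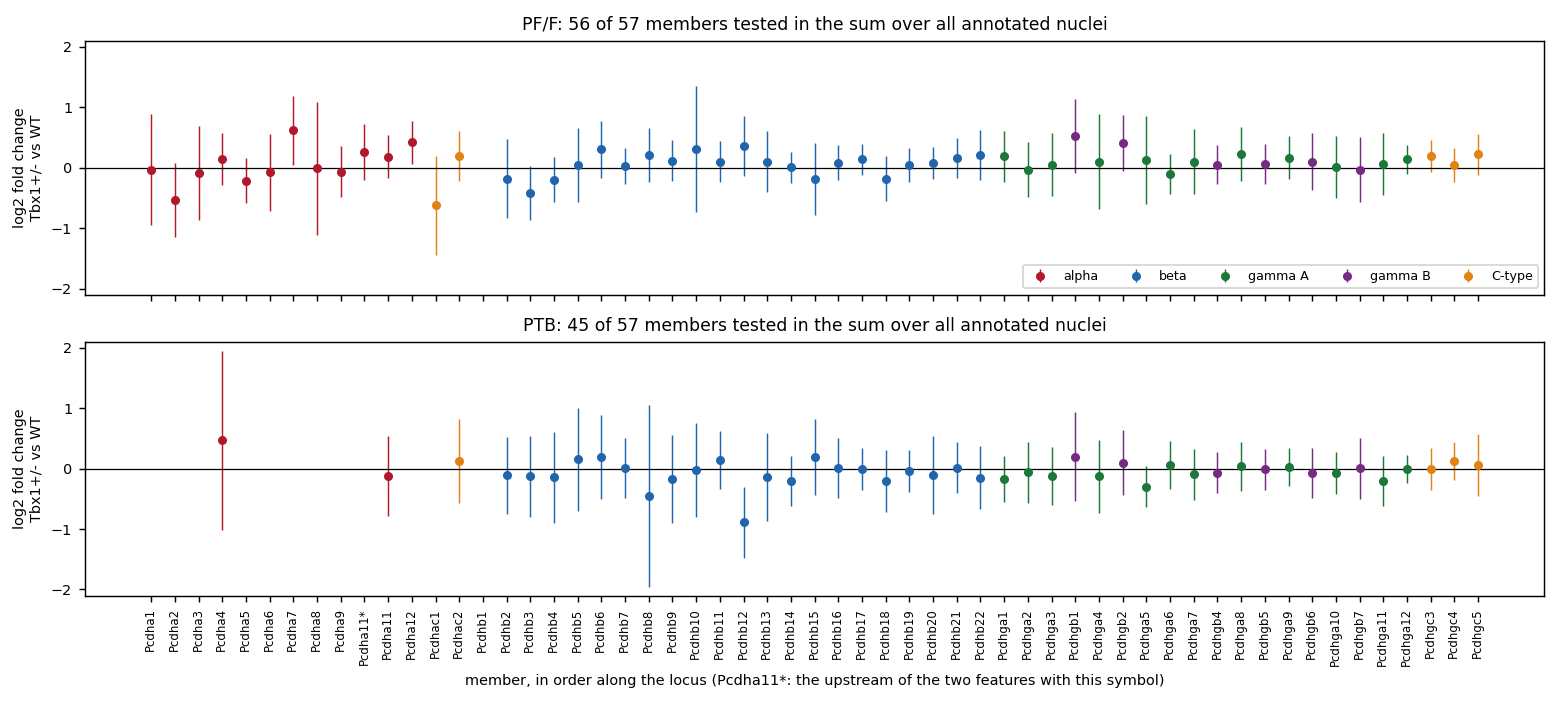
log2 fold change of Tbx1+/- against WT with its 95% interval for each member tested in the sum over all annotated nuclei, in order along the locus, for PF/F (56 members) and PTB (45 members). The intervals are nominal and narrower than the edgeR test implies. Those of 2 PF/F members and 1 PTB member leave out 0, a share that was not computed over all genes. No member passed the adjusted threshold.

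Among summed levels, the gamma A sum of matured osteoblasts/osteocytes was 134 and 151 CPM in the WT libraries and 118 and 112 CPM in the Tbx1+/- libraries, and the gamma B sum 37.8 and 47.8 CPM against 30.9 and 24.9 CPM. Both pairs were apart in these sums, picked from all groups and types after the values were seen, and none of their members passed. How many of the other sums were apart was not counted. With 2 libraries against 2, such a separation has a p of 0.33 in an exact two-sided permutation test. The alpha sum of granule neurons lay at 29.3 and 30.9 CPM in WT and 31.7 and 30.8 CPM in Tbx1+/- libraries, which overlapped.

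Regulators of the arrays and genes that flank them were looked at in the same type comparisons. Of 12 regulators of the arrays (CTCF, cohesin and its loader and release factors, DNA methylation and silencing factors), 5 were lower and 0 higher in granule neurons than in GNPs: the DNA methyltransferase Dnmt3b at −1.18, the cohesin subunits Rad21, Stag2 and Smc1a at −1.03, −0.88 and −0.63, and the silencing factor Smchd1 at −0.87. This stands beside 20.1% of all genes lower. In astroglia 9 of the 12 were lower than in GNPs, beside 16.5% of all genes. Purkinje cells against granule neurons had 6 of the 12 lower and 1 higher, beside 20.9% and 21.8% of all genes. GABA interneurons against their progenitors had 4 lower and 0 higher, beside 18.1% and 18.5%. In matured osteoblasts/osteocytes against osteoblasts 0 of the 12 passed. The flanking genes Taf7, Diaph1 and Zmat2, with Slc25a2 too low to test, passed in none of the 13 type comparisons.

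Of the non-clustered protocadherins, which are separate genes outside the arrays, 11 could be tested between granule neurons and GNPs. Pcdh9, Pcdh7, Pcdh15, Pcdh1 and Pcdh11x were higher by 3.37, 2.78, 2.72, 2.24 and 1.39 on the log2 scale, and Pcdh18 was lower at −2.25. These 5 higher and 1 lower of 11 stand beside 20.9% and 20.1% of all genes. In matured osteoblasts/osteocytes Pcdh15, Pcdh7 and Pcdh11x were higher than in osteoblasts, by 2.13, 1.82 and 1.10, beside 6.61% of all genes higher and 6.51% lower. Among genes for proteins that bind protocadherins, the focal adhesion kinases Ptk2b and Ptk2 were higher there by 1.93 and 1.10 and the synaptic adhesion gene Nlgn1 was lower at −0.69. In granule neurons against GNPs Nlgn2 was higher by 1.01. The same shares of all genes stand beside these calls.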

How the data were processed

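The 8 libraries were snRNA-seq (10x Genomics 3′ chemistry) of PTB and PF/F at P5.5. Per the submitters' processing notes and the study's methods, the authors used Cell Ranger 7.0.0, in intron mode, and mm10, and they deposited UMI counts for each barcode with tables of cell types for part of the nuclei they kept in PTB (chondrocyte, bone and connective tissue types) and for PF/F. Nuclei in these tables are called annotated here. The deposited counts were whole numbers and were used without correction for free RNA or removal of doublets beyond the authors' selection of nuclei. Positions came from the GENCODE annotation of GRCm38, in which 32158 of 32285 features were found. All 57 members were found.

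UMIs were summed per library and cell type. Levels are CPM of all UMIs of the sum. Sums were tested with edgeR 4.0.16 (R 4.3.3, filterByExpr, TMM, quasi-likelihood test) over all genes, with a library term for pairs of types and none for genotype. A gene passed at a Benjamini-Hochberg adjusted p under 0.05 and over 1.5-fold. Genotype was tested in types with at least 50 nuclei in each library. Sums were made with Python 3.11.15, numpy 2.4.6, pandas 2.3.3 and scipy 1.17.1. Alternatives were DESeq2 1.42.0, RLE size factors, no filter on low counts, nuclei with at least 2000 genes, leaving out the 8% of nuclei with the most UMIs in each library, the replicate block, each library left out and, chosen after seeing the data, total UMIs in place of TMM factors. Intervals are nominal 95% intervals (log2 value ± 1.96 SE), narrower than the edgeR test implies. Tbx1 in the PTB sum had an interval of −0.67 to −0.01 at an unadjusted p of 0.095 (edgeR). The limit for a count of 0 is 3 counts and covers counting error only. The number of pools, 2 a group, limits the genotype tests.

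The members and lists were chosen with earlier results of these data known. Named were the 5 C-type genes, the 3 highest alpha, beta, gamma A and gamma B genes in each tissue, up to 3 members per type pair and direction with the smallest p, genes of the regulator and relative lists, and Tbx1. The study states 2 batches, and deviations from the group means of same-numbered WT and Tbx1+/- libraries correlated at 0.550 in PF/F (20756 genes) and 0.478 in PTB (20250 genes), from 1 independent pair of deviations in each tissue. The fits were tested on simulated data with 100 genes changed 2-fold and 100 changed 4-fold: 81 and 95 were called for genotype over all PF/F nuclei (20739 genes), 95 and 96 for granule neurons against GNPs (16467 genes), and 81 and 99 for matured osteoblasts/osteocytes against osteoblasts (13945 genes). The simulated counts had the same fixed spread for every gene and no batch effect, and only genes above a low count were changed. The shares called may therefore not hold for the measured data. A cell type and a gene of the partner list are not reported here.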

Additional observations from a re-analysis of the deposited data

Results flagged for a closer look

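Barcodes outside the deposited cell type tables entered no comparison. The study describes further PTB nuclei, neurons and immune cells included, whose types are not in the tables used here. Among those of PTB with at least 3 UMIs of the neuron markers, the alpha genes summed to 11.9 CPM in WT 1 (110 UMIs, 1079 barcodes), 11.3 CPM in Tbx1+/- 1 (110 UMIs, 866 barcodes), 13.9 CPM in WT 2 (193 UMIs, 1008 barcodes) and 14.3 CPM in Tbx1+/- 2 (173 UMIs, 983 barcodes). In other PTB barcodes outside the tables with fewer such UMIs the alpha sum was 1.68, 1.54, 2.31 and 2.07 CPM in the same order. All 4 libraries thus held alpha UMIs in barcodes outside the main measurement, and these were flagged for that reason.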

How the results depend on the processing

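Genotype calls among members stayed at 0 in all 330 recomputed counts and interaction calls in all 15, and no log2 value of a named member that had passed changed sign. With total UMIs, members that had not passed changed sign in several pairs, 2 in granule neurons against GNPs, 4 in astroglia against GNPs and 6 in osteoblasts against CPs. With the replicate block 22 of 572 member tests (3.85%) had an unadjusted p under 0.05, in place of 10, and 0 passed. The share of all genes with the block is not given here, so this rise is not read as particular to the members. Of 874 recomputed log2 values of named members, 127 no longer passed. Counts of members that passed moved by over 1.5 times in several type pairs, and the cause was not tested. The alternatives also changed how many members could be tested, and percentages in brackets are the shares of all genes higher and lower in the same setting. Granule neurons against GNPs gave 18 of 29 tested in nuclei with at least 2000 genes (20.6% and 19.3%), in place of 36 of 47 (32 to 39 with a library left out). Purkinje cells against granule neurons gave 8 with DESeq2 (beside 20.6% of all genes higher and 19.1% lower), 8 of 32 in nuclei with at least 2000 genes (20.2% and 18.6%) and 5 of 43 without the nuclei with the most UMIs (19.1% and 19.3%), in place of 13 of 45 (9 to 11 with a library left out). Purkinje cells against GABA interneurons gave 1, 3 of 16 and 0 of 11 in that order (16.8% and 14.9%, 16.6% and 15.9%, 17.5% and 17.1% of all genes), in place of 5 of 26 (3 to 5, with 3 without PF/F WT replicate 2). GABA interneurons against progenitors gave 17 of 56 with no filter (beside 12.9% of all genes higher and 10.7% lower), 1 with DESeq2 (17.5% and 15.4%), 2 of 11 in nuclei with at least 2000 genes (17.9% and 17.2%), 1 of 15 without the nuclei with the most UMIs (17.8% and 18.1%) and 2 with total UMIs, in place of 4 of 20 (2 to 7, with 7 without PF/F WT replicate 1 and 2 without Tbx1+/- replicate 1 or WT replicate 2). Oligodendrocytes against astroglia gave 1 with DESeq2 (11.4% and 13.2%), 0 of 18 in nuclei with at least 2000 genes (10.1% and 13.3%) and 1 of 19 without the nuclei with the most UMIs (14.2% and 15.9%), in place of 3 of 23 (1 to 3, with 1 without PF/F WT or Tbx1+/- replicate 1). CT against CP gave 1 lower in nuclei with at least 2000 genes (6.73% and 6.98%) and 1 higher without the nuclei with the most UMIs (6.77% and 7.43%), in place of 0 (0 to 1, with 1 without PTB Tbx1+/- replicate 1). Matured chondrocytes against CP gave 0 with DESeq2 (7.71% and 10.9%), 1 lower each in nuclei with at least 2000 genes (4.65% and 10.5%) and without the nuclei with the most UMIs (9.33% and 16%), and, with no replicate block, 1 higher and 0 lower (8.55% and 14.3%), in place of 2 lower (0 to 2, with 0 without PTB Tbx1+/- replicate 1, WT replicate 2 or Tbx1+/- replicate 2). Hypertrophic chondrocyte/osteoblasts against CP gave 1 higher each, beside 9.01% to 9.75% of all genes higher, with RLE size factors, without the nuclei with the most UMIs, with no replicate block and with total UMIs, in place of 0 (0 to 4, with 2 without PTB WT replicate 1 and 4 without Tbx1+/- replicate 1). Osteoclasts against osteoblasts gave 11 of 14 lower without the nuclei with the most UMIs (23.0% and 21.0%), in place of 17 of 22 (13 to 15).

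With TMM library sizes the granule neuron sums were 37.0 CPM for alpha and 252 CPM for all members, in place of 30.7 and 209, the Purkinje alpha sum was 47.4 in place of 39.8, and the sums over all members were 166 in osteoblasts and 82.3 in osteoclasts, in place of 149 and 74.7. In nuclei with at least 2000 genes the granule neuron alpha sum was 32.5 CPM. Unthinned shares of nuclei with any member UMI were 47.0% in granule neurons, 29.6% in GNPs, 66.0% in matured osteoblasts/osteocytes, 48.5% in osteoblasts and 32.5% in osteoclasts, and with an alpha UMI 9.48% in granule neurons and 2.12% in GNPs.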
